A study of Mus musculus with 16 samples.

Results

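The genes described here are 37 that serve protein secretion or respond to unfolded protein, found by their symbols in a table of 20056 genes, and all 37 had values in all 16 libraries. Mesenchymal stem cells (MSC) and osteoblasts (OB) were sorted from 8 mice, 4 wild-type and 4 miR-9-1-deficient, the latter generated by CRISPR/Cas9 editing for a study of miR-9-1 in the marrow niche of lymphocyte formation, and their poly(A) RNA was sequenced. The 4 groups of 4 libraries were thus wild-type MSC, miR-9-1-deficient MSC, wild-type OB and miR-9-1-deficient OB. The sources used here do not give the form of the edit, the number of founder lines, the strain, age and sex of the mice or the markers of the sorts, and they name no treatment or time point. Wild-type mice are lettered A to D and deficient mice E to H. Since the titles repeat each animal number, every mouse is taken to have given 1 library of each sort. Sex-linked genes, given below, do not bear this out for OB, where a letter stands for the animal number only. Values are the authors' normalized counts, that is, reads per gene divided by 1 size factor per library.

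Proteins that leave the cell enter the endoplasmic reticulum (ER) through the Sec61 channel, are folded there by chaperones, disulfide isomerases and prolyl isomerases, and are carried to the Golgi in vesicles with a COPII coat. Collagen, the main product of bone-forming cells, is too long for ordinary COPII vesicles, and it needs its own chaperone and its own export receptor. When unfolded protein builds up in the ER, the sensors IRE1 (gene Ern1), ATF6 and PERK start the unfolded protein response, in which the factors XBP1 and ATF6 raise transcription of ER chaperones, CHOP (gene Ddit3) rises in prolonged stress, and misfolded protein is sent for degradation. The related factors CREB3L1 (also called OASIS) and CREB3L2 are cleaved at the Golgi like ATF6 and drive secretory and matrix genes in bone and cartilage cells. The members were read in 6 roles: 12 ER chaperones and co-chaperones, 5 isomerases, 5 genes of the translocon (the channel and the proteins around it), 7 of the COPII coat, collagen export and ER retrieval, 6 stress sensors and transcription factors, and 2 of ER-associated degradation.

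Recovered reads per library ran from 10148197 to 14246986 in MSC and from 15543693 to 18962771 in OB libraries. Mir9-1 itself could not check the labels, since it stood at 0 in all 8 MSC libraries, at 5.50, 10.4, 0 and 2.94 in wild-type OB and at 0, 1.95, 0 and 0 in deficient OB. The 10 osteoblast markers had a mean log2 level of 11.5 to 11.7 in wild-type MSC, above the 9.99 to 10.8 of wild-type OB, while the 10 blood progenitor markers stood at 8.49 to 8.98 in wild-type MSC and at 10.6 to 10.8 in wild-type OB, so the OB label was not matched by a higher level of its own markers. None of these 20 genes was at 0 in all libraries of a group. All 8 OB libraries held Xist, from the inactive X, and Y-linked Ddx3y, each at 649 normalized counts or more, so none could be assigned to 1 sex. Each MSC library was high in 1 of these genes only, which goes against 1 mouse per OB library. In MSC, Ddx3y was the high one in wild-type A and deficient E and F, and Xist in wild-type B, C and D and deficient G and H. By these genes the sexes were not balanced between the MSC genotypes. Skeletal muscle markers had mean log2 levels of 6.24 (G) and 7.88 (H) in 2 deficient MSC libraries, where the other 6 MSC libraries ran from 3.31 to 5.12. Stroma markers stood at 10.4 (E) and 10.8 (F) in 2 deficient OB libraries, where the other 6 OB libraries ran from 7.61 to 8.997. Nothing in the sources used here says whether mice were litter mates, so p-values measure the spread between these libraries only.

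Per kilobase of annotated exon, collagen chaperone and major folding factors led the members. In wild-type MSC, Serpinh1, which encodes the collagen chaperone HSP47, stood highest at 11140 ± 734.8 normalized counts per kilobase (SD, n = 4). Hspa5 (the master chaperone BiP), Calr (the lectin chaperone calreticulin) and P4hb (protein disulfide isomerase, also a subunit of collagen prolyl hydroxylase) followed at 5653 ± 394.4, 5519 ± 605.6 and 5506 ± 631.9 per kilobase, and these 3 did not differ beyond their spread. Lowest were the factor Creb3l2 at 216.9 ± 39.56 and the sensors Atf6 at 145.3 ± 14.20 and Ern1 at 104.4 ± 6.27 per kilobase. Others of the same role stood higher, with Creb3l1 at 990.3 ± 147.3, Xbp1 at 763.2 ± 140.3 and Ddit3 at 350.9 ± 37.43. In wild-type OB the order at the top differed, with Calr at 6159 ± 235.7, Hspa5 at 4109 ± 110.9, P4hb at 2969 ± 372.8 and Serpinh1 at 2846 ± 802.7 per kilobase, of which the last 2 overlapped. Together the members took 1.10 ± 0.0595% of all normalized counts in wild-type MSC, 0.831 ± 0.197% in deficient MSC, 0.959 ± 0.0322% in wild-type OB and 0.881 ± 0.0567% in deficient OB (SD, n = 4).

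In MSC, most members that fold and export protein had lower means in miR-9-1-deficient mice and 1 of them, Manf, passed, while 3 of 6 sensors and factors lay on either side of 0. A difference between the roles was not tested. Of the 37 members, 33 had a log2 difference below 0, and the median was -0.48 against -0.03 over the 14964 genes tested. At an unadjusted p under 0.05, 25 members (67.6%) were lower and 0 higher, where 12.1% of all genes were lower and 10.7% higher. The members were chosen with earlier results of these data known, so such shares, here and below, describe them and are no test. Members that move together in a library are not separate observations. The 4 deficient libraries all lay below the 4 wild-type ones for 9 members and above them for 0, where 6.1% of all genes lay below. After adjustment over all genes only Manf passed (limma with Benjamini-Hochberg adjustment, adjusted p under 0.05), where 1.06% of all genes passed, so 1 call in 37 is near the background. The count was 0 by edgeR and 11 by DESeq2, where 0.982% and 7.99% of all genes passed. Among the roles, the median log2 difference was -0.67 for chaperones, -0.55 for isomerases, -0.44 for the translocon, -0.48 for coat, export and retrieval, -0.30 for degradation and -0.01 for sensors and factors. In these bulk libraries fewer secretory cells and less RNA per cell cannot be told apart.

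**Figure D1:**
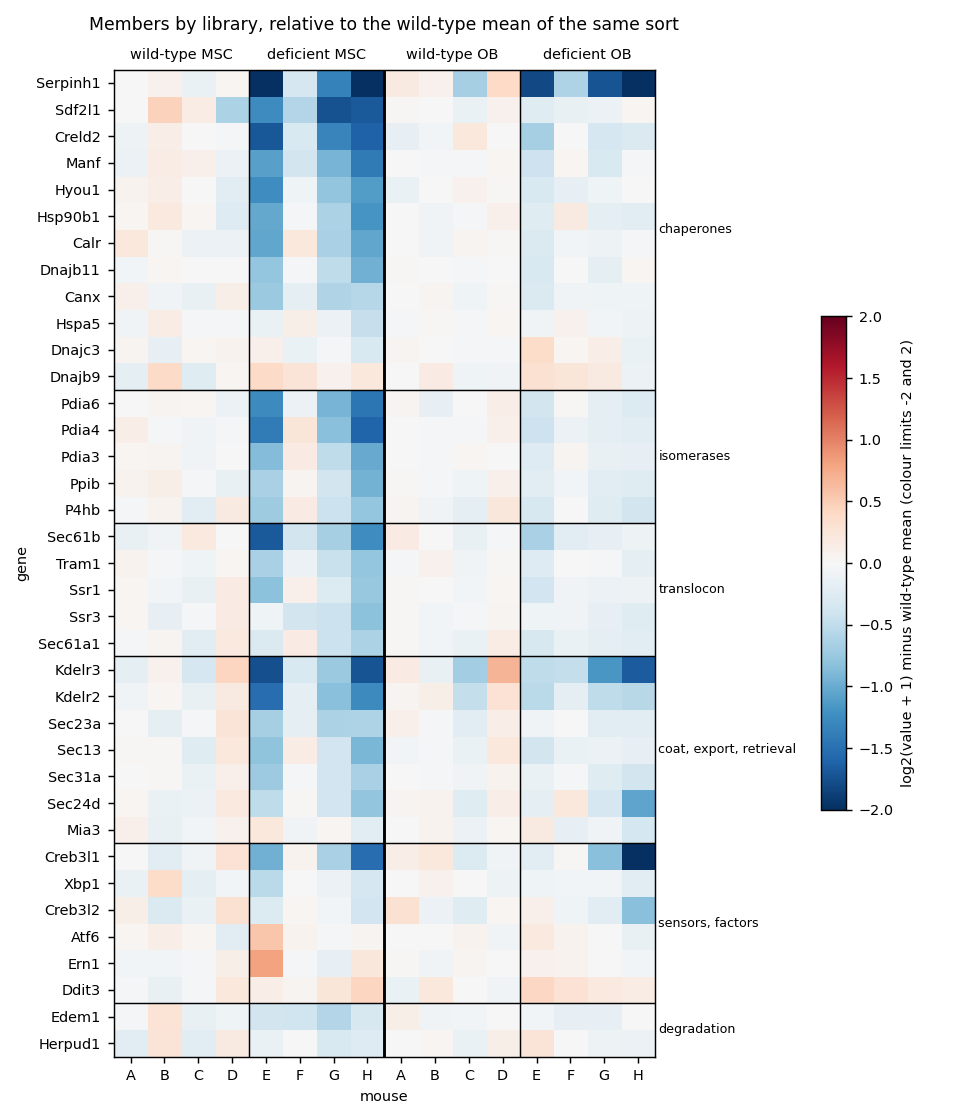
Each cell shows log2(value + 1) of 1 member (rows, by role) in 1 library (columns, by mouse) minus the wild-type mean of the same sort, with colours cut at -2 and 2. In deficient MSC the libraries of mice E, G and H are blue for most folding, translocon and coat genes, with a mean difference over the 37 members of -0.694, -0.51 and -0.831, and the library of mouse F is near white at -0.064.

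The deficient mice were not alike. The mean difference of the 37 members from the wild-type MSC mean was -0.694 for mouse E, -0.064 for F, -0.51 for G and -0.831 for H, while the 4 wild-type mice ran from -0.076 to 0.0428. Of 37 members, 28, 10, 30 and 33 lay below every wild-type library in E, F, G and H. The share of all genes was not counted for single libraries, so these counts have no background beside them. Within deficient MSC the library of F was the highest for 29 members. The median coefficient of variation over members was 29.8% in deficient MSC and 10% in wild-type MSC. Without mouse F's MSC library 24 members passed, all lower, and 15.3% of all genes passed. Leaving out any 1 of the other 7 libraries left 0 members past the threshold, where 0% to 0.0811% of all genes passed.

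Chaperones had the lowest median of the 6 roles in MSC. Of the 12, 9 were lower at an unadjusted p under 0.05, and 4 had groups that did not overlap. Manf (chromosome 9, 106838312 to 106891979, minus strand, GRCm38/mm10) encodes a small ER protein that is secreted when calcium or folding in the ER is disturbed. Manf stood at 1894, 2288, 2213 and 1895 normalized counts in wild-type mice A to D and at 974.3, 1593, 1084 and 775.9 in deficient mice E to H. All 4 deficient libraries lay below the lowest wild-type one. The mean went from 2072 ± 208 to 1107 ± 348 (SD, n = 4), a log2 difference of -0.95 ± 0.20 (SE, adjusted p = 0.0495), and over 19 alternative settings the adjusted p ran from 0.00184 to 0.281, passing in 6. Creld2 (chromosome 15, 88819646 to 88826683, plus strand), which encodes an ER-resident folding factor of the same stress program, stood at 936.7, 1099, 997.7 and 990.3 in wild-type MSC and at 311.1, 811.9, 401.3 and 325.8 in deficient MSC. The groups did not overlap, and F lay nearer to wild-type than E, G and H did. Its log2 difference was -1.23 ± 0.26 (adjusted p = 0.0537). Sdf2l1, a component of the BiP chaperone cycle, read 378.8, 520.5, 418.5 and 243.5 in wild-type and 157.3, 251.3, 112.4 and 116.9 in deficient MSC. Its wild-type values spread widely, and deficient F lay above wild-type D. The log2 difference was -1.31 ± 0.31 (adjusted p = 0.0611).

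Serpinh1 and Hspa5 fell outside the rule for genes given library by library and were chosen after their values were seen, because HSP47 had the largest difference and BiP is the central chaperone of the stress response. Serpinh1 (chromosome 7, 99345376 to 99353239, minus strand) stood at 27159, 28925, 24748 and 28023 in wild-type MSC and at 6026, 21437, 10627 and 5214 in deficient MSC. No deficient value reached a wild-type one, and F stood well above E, G and H. The log2 difference was -1.56 ± 0.37 (adjusted p = 0.0611), the largest in size among the 37 members in MSC. Hspa5 (chromosome 2, 34771970 to 34777547, plus strand) stood at 22795, 26389, 23276 and 23164 in wild-type and at 21762, 25904, 21979 and 17343 in deficient MSC. The groups overlapped, and the log2 difference was -0.15 ± 0.18 (adjusted p = 0.646). Between these lay Hyou1 at -0.81 ± 0.22, a partner of BiP that exchanges its nucleotide, Hsp90b1 (GRP94) at -0.72 ± 0.23, Calr at -0.63 ± 0.26, the BiP co-chaperone Dnajb11 at -0.57 ± 0.18 and the membrane lectin Canx (calnexin) at -0.53 ± 0.15, with adjusted p from 0.0866 to 0.180. The stress-inducible co-chaperones Dnajc3 (p58IPK) and Dnajb9 (ERdj4) had differences of -0.09 ± 0.13 and 0.23 ± 0.15 (adjusted p = 0.715 and 0.380).

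**Figure D2:**
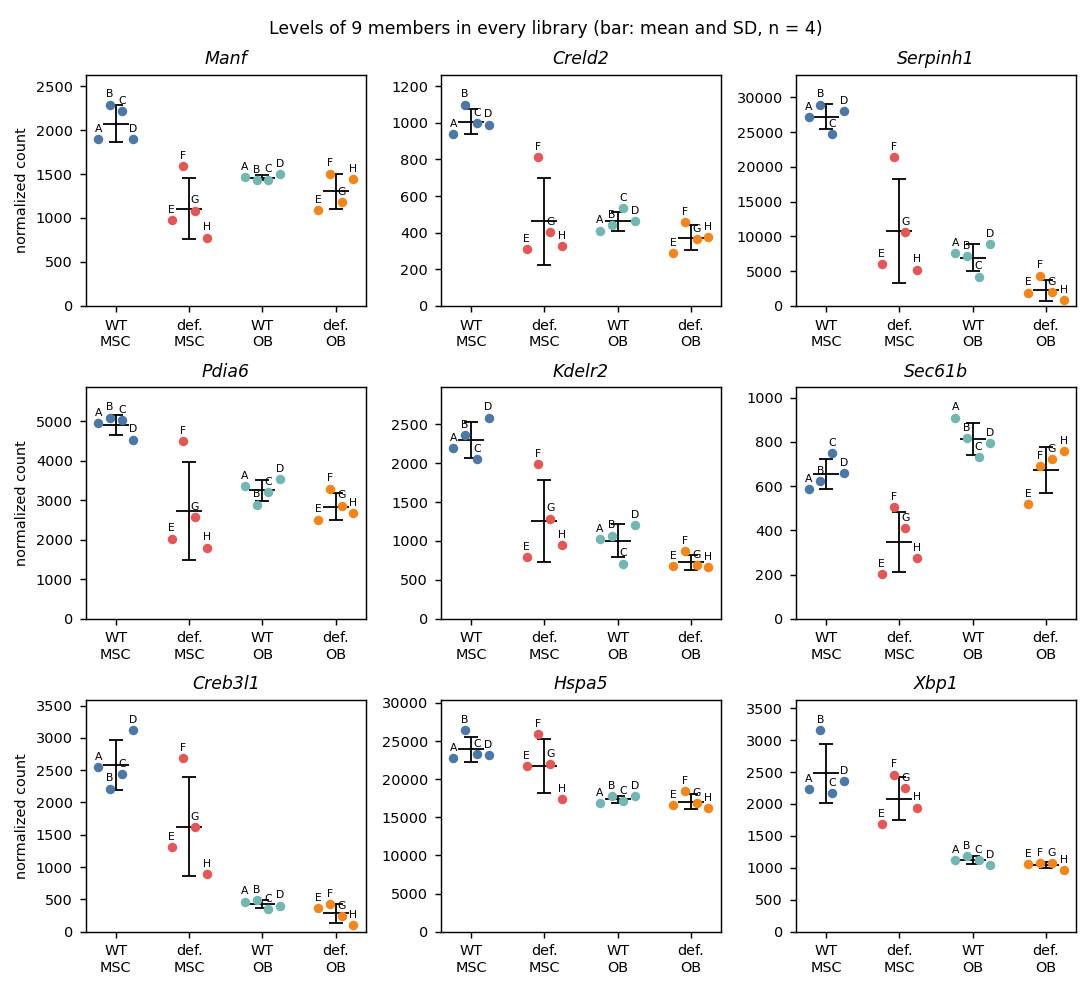
Normalized counts of 9 members (panels) in every library, lettered by mouse, with bars for mean and SD (n = 4). Among deficient MSC, mouse F sits nearest to wild-type in the panels of Serpinh1, Pdia6, Kdelr2 and Creb3l1, and Hspa5 and Xbp1 overlap between genotypes.

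Promoters were read for the elements through which ATF6 and XBP1 act on ER genes, because the log2 differences of the chaperones ranged widely in MSC. Exact matches to 3 elements were searched on both strands in the RefSeq promoters of GRCm38.p6, which run from 250 bases before to 50 after the start: the ER stress response element (ERSE, CCAAT and CCACG with 9 bases between), ERSE-II (ATTGG and CCACG with 1 base between) and the unfolded protein response element (UPRE, TGACGTGG). The table held a promoter for 30 members, with none for Manf, Hyou1, Sec61a1, Tram1, Kdelr2, Atf6 and Creb3l1. An ERSE stood in 7 of 30 members (23.3%) and in 23 of 14167 genes of the whole table (0.162%), ERSE-II in 2 of 30 (6.67%) against 0.0635%, and UPRE in 3 of 30 (10%) against 1%. Members are known stress-response genes, so this share describes them and is no test. Each ERSE is given 5′ to 3′ in its own direction, with its blocks in capitals, beside the MSC log2 difference of its gene in the order of size.
Creld2 (-1.23): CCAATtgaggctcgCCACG
Pdia6 (-0.94): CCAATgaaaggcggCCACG
Hsp90b1 (-0.72), distal: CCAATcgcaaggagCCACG
Hsp90b1 (-0.72), proximal: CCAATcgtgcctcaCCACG
Calr (-0.63): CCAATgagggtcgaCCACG
Canx (-0.53): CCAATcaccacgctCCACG
Hspa5 (-0.15): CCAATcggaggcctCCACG
Dnajc3 (-0.09): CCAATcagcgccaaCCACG
The same spaced blocks thus stood before genes whose log2 differences ran from -1.23 to -0.09. ERSE-II stood in Dnajb11 and Herpud1, and UPRE in Kdelr3, Sec23a and Sec24d. A match is a run of letters, and binding was not measured in these libraries.

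For Creld2 and Pdia6, the ERSE genes with the smallest p in MSC, and for Hspa5, with a near-level mean, the 250 bases before the start are shown on the plus strand of GRCm38.p6, each gene's own strand, with the ERSE in capitals. They lie at chr15:88819396-88819645, chr12:17266339-17266588 and chr2:34771840-34772089.
Creld2: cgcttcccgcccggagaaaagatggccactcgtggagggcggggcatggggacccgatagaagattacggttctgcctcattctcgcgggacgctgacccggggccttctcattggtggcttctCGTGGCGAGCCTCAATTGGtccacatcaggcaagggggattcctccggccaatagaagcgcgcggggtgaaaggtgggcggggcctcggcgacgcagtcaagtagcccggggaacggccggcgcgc
Pdia6: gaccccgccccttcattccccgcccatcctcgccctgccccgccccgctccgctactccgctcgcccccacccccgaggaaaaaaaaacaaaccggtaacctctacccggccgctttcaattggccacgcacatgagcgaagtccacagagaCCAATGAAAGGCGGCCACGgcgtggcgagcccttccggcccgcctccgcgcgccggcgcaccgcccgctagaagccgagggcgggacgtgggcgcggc
Hspa5: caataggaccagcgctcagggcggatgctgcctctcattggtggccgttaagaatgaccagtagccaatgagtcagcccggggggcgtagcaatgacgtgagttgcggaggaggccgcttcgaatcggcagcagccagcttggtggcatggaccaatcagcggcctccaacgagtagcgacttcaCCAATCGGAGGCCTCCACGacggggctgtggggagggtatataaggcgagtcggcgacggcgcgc
The element of Creld2 reads in reverse and spans bases -126 to -108 from the start, that of Pdia6 reads forward from -98 to -80, and that of Hspa5 reads forward from -65 to -47.

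**Figure D3:**
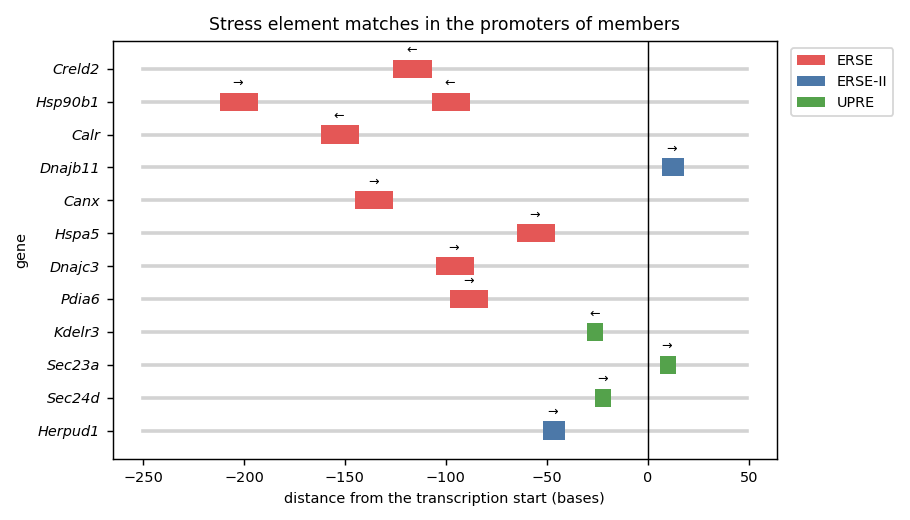
Positions of exact ERSE, ERSE-II and UPRE matches in member promoters, in bases from the transcription start, with arrows for the direction relative to the gene. The 8 ERSE matches all lie before the start, from -212 in Hsp90b1 to -47 in Hspa5.

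All 5 isomerases were below wild-type in mean, 4 of them at an unadjusted p under 0.05, and none passed. Pdia6, a disulfide isomerase that also damps IRE1 and PERK, stood at 4940, 5087, 5020 and 4528 in wild-type and at 2028, 4502, 2566 and 1800 in deficient MSC. The groups stayed apart by a narrow margin, since F reached 4502. Its log2 difference was -0.94 ± 0.24 (adjusted p = 0.0767). Pdia4 read 3194, 2859, 2778 and 2834 against 1101, 3436, 1633 and 954.2. Here F lay above every wild-type library while E, G and H lay below all of them, and the log2 difference was -0.90 ± 0.32 (adjusted p = 0.139). Ppib, the prolyl isomerase cyclophilin B that helps to fold collagen, read 4658, 4799, 4366 and 3993 against 2845, 4607, 3446 and 2312. Here F lay within the wild-type range, and the log2 difference was -0.47 ± 0.19 (adjusted p = 0.175). In the annotation 25.0% of Ppib exon bases and 15.7% of Hsp90b1 exon bases are shared with another gene, and the sources used here do not say whether counting used strand. Pdia3 and P4hb had differences of -0.55 ± 0.23 and -0.44 ± 0.21.

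The 5 translocon members were lower in mean as well, 4 at an unadjusted p under 0.05 and 2 without overlap. Sec61b, the small beta subunit of the channel, stood at 587, 622.7, 747.9 and 658.2 in wild-type and at 203.1, 503.9, 410.5 and 276.2 in deficient MSC. Every deficient library lay below every wild-type one, and the log2 difference was -0.99 ± 0.26 (adjusted p = 0.0796). Tram1, a membrane protein next to the channel, read 2427, 2289, 2178 and 2373 against 1477, 2137, 1705 and 1359. F lay just below the wild-type range, and the log2 difference was -0.49 ± 0.15 (adjusted p = 0.105). Ssr3, a subunit of the translocon-associated protein complex, read 6355, 5518, 6105 and 6947 against 5849, 4792, 4587 and 3535. In this gene E, not F, was the highest deficient library, and the log2 difference was -0.43 ± 0.16 (adjusted p = 0.155). Ssr1 of the same complex had -0.44 ± 0.20, and Sec61a1, which forms the pore, had -0.30 ± 0.17.

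Among the 7 genes of coat, export and retrieval, 6 were lower at an unadjusted p under 0.05, and the KDEL receptors led. These receptors return escaped ER chaperones from the Golgi. Kdelr2 (chromosome 5, 143403838 to 143421901, plus strand) stood at 2190, 2363, 2055 and 2586 in wild-type and at 795.8, 1990, 1289 and 951.2 in deficient MSC. The groups did not overlap, though F lay just below wild-type C, and the log2 difference was -0.96 ± 0.24 (adjusted p = 0.0737). Kdelr3 (chromosome 15, 79516411 to 79527739, plus strand) read 1092, 1323, 985.5 and 1670 against 366.2, 1005, 743.8 and 375.5. Only F overlapped with wild-type, and the log2 difference was -1.13 ± 0.31 (adjusted p = 0.0872). Sec23a, an inner coat subunit whose loss impairs collagen export in the skull, read 1721, 1515, 1693 and 2068 against 1100, 1522, 1124 and 1137. E, G and H lay close together below wild-type, F lay inside it, and the log2 difference was -0.52 ± 0.15 (adjusted p = 0.0915). The outer coat subunits Sec13 and Sec31a had -0.48 ± 0.22 and -0.45 ± 0.16, and the cargo adaptor Sec24d had -0.41 ± 0.17. Mia3 (TANGO1), the receptor that loads collagen into COPII carriers, stood apart at -0.01 ± 0.13, with means of 3274 ± 270 and 3266 ± 416 (SD, n = 4). Under 8 alternative settings its sign turned, with values up to 0.13.

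Sensors and factors showed no shared direction: 3 lay below 0 and 3 above, and 1 of 6 was lower at an unadjusted p under 0.05. Creb3l1 (chromosome 2, 91982328 to 92024502, minus strand) stood at 2549, 2214, 2434 and 3114 in wild-type and at 1308, 2684, 1624 and 887 in deficient MSC. F lay within wild-type and the other 3 below it, with a log2 difference of -0.77 ± 0.28 (adjusted p = 0.141). Xbp1, the factor that IRE1 activates by splicing its mRNA, read 2238, 3152, 2168 and 2356 against 1681, 2461, 2254 and 1945. The groups overlapped, and the log2 difference was -0.25 ± 0.16 (adjusted p = 0.387). Spliced and unspliced Xbp1 cannot be told apart in gene counts. Ddit3 read 589.8, 539.9, 583.2 and 691.3 against 655, 621.2, 709.8 and 809.5. These ranges overlapped too, at a log2 difference of 0.22 ± 0.15 (adjusted p = 0.396). Ern1, Atf6 and Creb3l2 had differences of 0.21 ± 0.19, 0.16 ± 0.15 and -0.17 ± 0.16, and the highest Ern1 and Atf6 values in MSC, 1481 and 1958, were both in mouse E.

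Of the 2 degradation genes, Edem1, a lectin-like protein that sends misfolded glycoproteins to degradation, stood at 1825, 2281, 1686 and 1770 in wild-type and at 1459, 1430, 1246 and 1501 in deficient MSC. Edem1 was the only one of the 9 non-overlapping members in which F was not the highest deficient library, and its log2 difference was -0.42 ± 0.13 (adjusted p = 0.115). Herpud1, a scaffold of the degradation complex that ER stress induces, read 2582, 3550, 2564 and 3371 against 2712.7, 2996.3, 2413.0 and 2485.5. The groups overlapped, with a log2 difference of -0.18 ± 0.15 (adjusted p = 0.502).

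In OB, no member passed between genotypes, and log2 differences lay nearer 0 for most members, with Serpinh1, Kdelr3 and Creb3l1 farthest from it. The count was 0 of 37 by limma, by edgeR and by DESeq2, where 0.0281% of the 14229 genes tested passed by limma. At an unadjusted p under 0.05, 12 members (32.4%) were lower, where 4.78% of all genes were, and 1 was higher, where 4.17% were. Groups did not overlap, with deficient lower, for 4 members, where 2.99% of all genes did so. A total of 31 members lay below 0, and the median was -0.14 against -0.02 over all genes. The role medians were -0.12 for chaperones, -0.20 for isomerases, -0.17 for the translocon, -0.20 for coat, export and retrieval, -0.04 for sensors and factors and -0.05 for degradation.

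Serpinh1 stood at 7627, 7120, 4220 and 8847 in wild-type OB and at 1913, 4373, 2019 and 790.7 in deficient OB. F lay just above wild-type C and the other 3 far below, with a log2 difference of -1.81 ± 0.44 (adjusted p = 0.266). Kdelr3 read 382.6, 308.9, 210.2 and 551.3 against 239.5, 246.2, 152.8 and 107.5. The ranges overlapped through wild-type C, at a log2 difference of -0.95 ± 0.33 (adjusted p = 0.428). Creb3l1 read 465.1, 491.6, 351.8 and 402.3 against 361.4, 429.2, 236.1 and 105.2. Here G and H lay below wild-type and E and F within it, at -0.76 ± 0.37 (adjusted p = 0.584). Kdelr2 had a log2 difference of -0.45 ± 0.16 with F at 866.2, the other 3 deficient libraries between 665.9 and 689.4, and wild-type between 708.2 and 1207. The 4 members without overlap were Pdia4, Sec61a1, Ssr1 and Ssr3, at -0.23 ± 0.07, -0.21 ± 0.07, -0.17 ± 0.07 and -0.14 ± 0.06, small differences between tight groups. Pdia4 read 2794, 2722, 2717 and 2998 in wild-type and 2105, 2599, 2478 and 2427 in deficient OB. Ssr1 read 4559, 4471, 4312 and 4629 against 3432, 4260, 4142 and 4202, with F just below wild-type C. Ddit3 was the member higher at an unadjusted p under 0.05, with 308, 390.8, 336 and 321.6 in wild-type and 449.6, 412.9, 387.4 and 375.8 in deficient OB, a log2 difference of 0.26 ± 0.10 (adjusted p = 0.479), with overlapping ranges. Manf read 1462, 1434, 1436 and 1497 against 1092, 1504, 1182 and 1438, so F exceeded every wild-type library, and Manf and Hspa5 had log2 differences of -0.17 ± 0.10 and -0.03 ± 0.06. With the stroma level as a covariate 4 members passed, Creb3l1, Sec24d, Sec31a and Serpinh1, where 1.8% of all genes passed. Without mice E and F 1 passed, Serpinh1, where 0.634% of all genes did. Osteoblast markers summed to 100801 to 214191 normalized counts in wild-type and 14271 to 68938 in deficient OB. In mean 9 of 10 were lower, where 56.2% of all genes were. At an unadjusted p under 0.05 (limma) 5 were lower, where 4.78% of all genes were. The list includes Col1a1, which alone stood at 88879 to 198771 in wild-type and 8330 to 50379 in deficient OB, so this sum largely repeats that gene. The part of these markers in the members' differences was not tested.

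**Figure D4:**
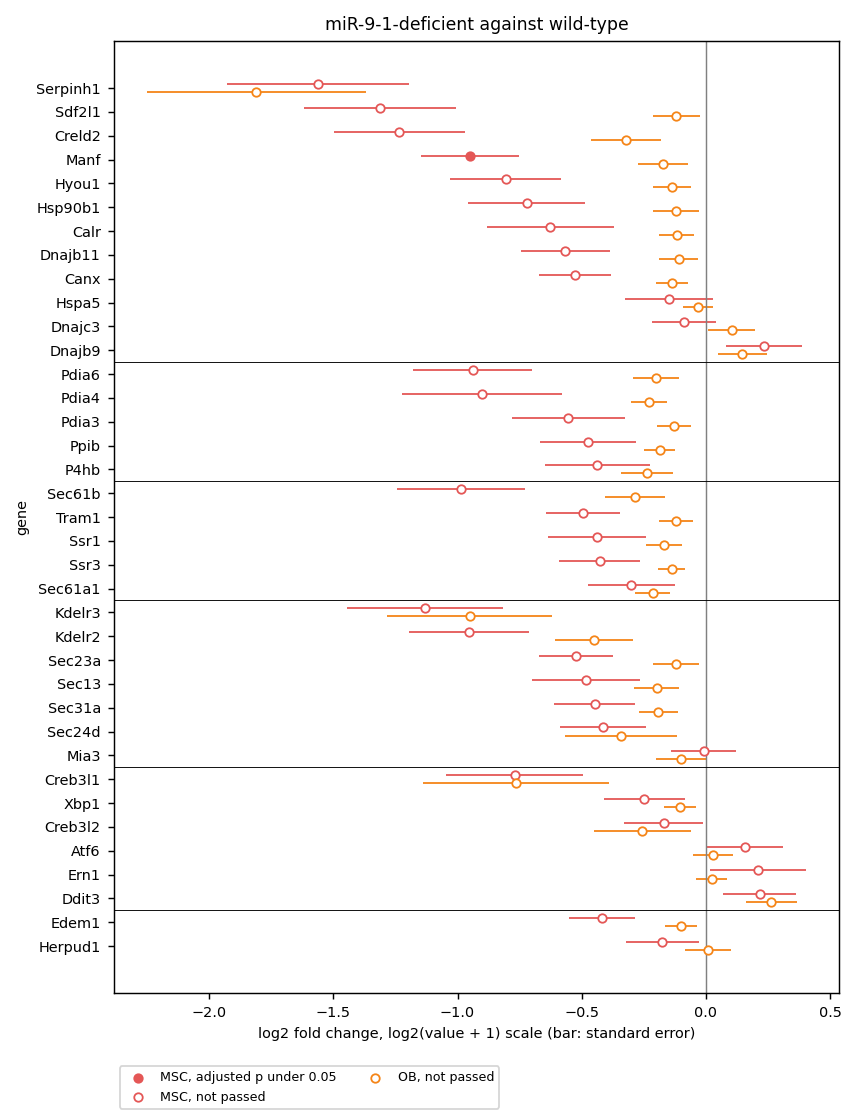
Log2 difference between miR-9-1-deficient and wild-type libraries for each member (rows, by role), with standard errors, in MSC (red) and OB (orange). Filled points passed at an adjusted p under 0.05, which holds for Manf in MSC, at -0.95 ± 0.20; Serpinh1 and Kdelr3 lie far left in both sorts.

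The difference of the genotype effects between the sorts did not pass for any member. The count was 0 of 37 by limma, edgeR and DESeq2, where 0.0129% of the 15556 genes passed by limma. At an unadjusted p under 0.05 the effect was less negative in OB for 12 members, where 5.51% of all genes were higher in this sense, and more negative for 0. Sdf2l1 had the smallest adjusted p, 0.264, with a difference of 1.19 ± 0.34, followed by Manf at 0.78 ± 0.23 (adjusted p = 0.291). Creld2, Pdia6 and Hyou1 had 0.91 ± 0.33, 0.74 ± 0.28 and 0.67 ± 0.26. Of the 12, 7 were chaperones and 0 were sensors or factors. Without mouse F's MSC library 12 members passed, 8 of them chaperones, where 3.69% of all genes passed.

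Collagen RNA, the main cargo of this pathway in bone cells, was lower in the same libraries. Col1a1 stood at 813054, 605489, 604933 and 765769 in wild-type MSC and at 202910, 402536, 399772 and 150990 in deficient MSC, a log2 difference of -1.38 ± 0.54 (adjusted p = 0.165), which was -0.20 under quantile normalization. Col1a2 had -1.19 ± 0.51 (adjusted p = 0.196), but 0.04 under quantile normalization. In OB, Col1a1 stood at 156742, 198771, 88879 and 134052 in wild-type and at 25026, 50379, 48660 and 8330 in deficient mice, a log2 difference of -2.38 ± 0.52 (adjusted p = 0.204). Neither gene overlapped between genotypes in either sort. The mean log2 level of 11 matrix genes was 15.78, 16.80, 16.59 and 15.55 in deficient MSC of E to H, and that of the 37 members was 10.89, 11.52, 11.07 and 10.75, so both ran in the order F, G, E, H. In deficient OB the matrix genes stood at 13.37, 13.84, 13.09 and 11.57 and the members at 10.59, 10.76, 10.58 and 10.44. Both ran in the order F, E, G, H, though E and G were nearly level in the members. The wild-type libraries shared only the lowest place, held by C in both lists and both sorts. Matrix genes ran D, A, B, C and members B, D, A, C in MSC, and A, B, D, C against D, A, B, C in OB. The part of matrix output, of osteoblast content or of cell composition in the members' levels was not tested. Osteoblast markers summed to 649648 to 865145 normalized counts in wild-type and 196528 to 498311 in deficient MSC, and 8 of 10 had a lower mean. At an unadjusted p under 0.05, 7 were lower (limma), where 12.1% of all genes were, and 2 passed, where 1.06% did. The list includes Col1a1, which alone stood at 604933 to 813054 in wild-type MSC, so this sum largely repeats the collagen value. Plasma cells are rich in ER, and their markers summed to 8989 to 15118 in wild-type and 4132 to 8722 in deficient MSC, with 8 of 9 tested lower in mean. The list includes Txndc5, Derl3 and Fkbp11, which encode ER proteins, so the sum is not a reading of plasma cells alone. Blood progenitor markers summed to 5548 to 8272 in wild-type and 4524 to 4641 in deficient MSC, with 10 of 10 lower in mean, and neutrophil markers to 29477 to 122042 and 31333 to 63528, with 9 of 10 lower. Other lists were less one-sided, with 6 of 10 stroma, 6 of 10 endothelial, 5 of 10 erythroid and 4 of 8 macrophage markers below 0. Over all genes tested 52.7% lay below 0. At an unadjusted p under 0.05 (limma), 0 stroma markers were lower and 1 was higher. B-lineage markers summed to 2715 to 3376 in wild-type and 2072 to 3582 in deficient MSC, with 8 of 9 tested lower in mean. Vpreb1 was at 0 in all 4 deficient libraries. These sums overlapped, but the mean log2 levels did not, at 6.32 to 7.1 in wild-type against 3.79 to 5.01 in deficient MSC. Of the B-lineage markers 3 passed as lower (limma, adjusted p under 0.05), where 1.06% of all genes passed. Muscle markers summed to 444 to 639 in wild-type and 543 to 6422 in deficient MSC, with 8 of 10 tested higher in mean and Myh4 at 0 in all 4 wild-type libraries. With the muscle level as a covariate, the members' median was -0.41 and 12 were lower at an unadjusted p under 0.05, and without G and H the median was -0.38 with 10, none passing in either case.

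Between sorts, wild-type OB had less of most members than wild-type MSC, and Creb3l1, Serpinh1, Sec24d, Kdelr3 and Creb3l2 differed most. Of 37 members, 30 fell and 1, Sec61b, rose (limma, adjusted p under 0.05), where 69.9% of the 14696 genes tested passed and 35.5% were lower. The 6 that did not pass were Calr, Canx, Sdf2l1, Pdia4, Ssr1 and Ern1. All 7 members of coat, export and retrieval fell, with a median of -1.29, as did 5 of 6 sensors and factors, with a median of -0.98. The medians of chaperones, isomerases and translocon were -0.51, -0.60 and -0.37, against 0.01 over all genes. Creb3l1 fell from 2578 ± 383 to 428 ± 62.9 (SD, n = 4), a log2 fold change of -2.59 ± 0.13 (adjusted p = 3.78e-08). Serpinh1, Sec24d, Kdelr3 and Creb3l2 had log2 fold changes of -2.02 ± 0.19, -2.01 ± 0.10, -1.86 ± 0.26 and -1.64 ± 0.15. Among the other coat and export genes Sec23a, Sec31a and Mia3 had -1.34 ± 0.11, -1.29 ± 0.07 and -1.11 ± 0.08, and Sec13 -0.31 ± 0.11. Of the stress factors Xbp1 had -1.13 ± 0.11 and Ddit3 -0.82 ± 0.12. Sec61b rose by 0.32 ± 0.10, from 654 ± 69.1 to 814 ± 73.5. Under quantile normalization the median of all genes moved from 0.01 to 0.17, 25 of 31 passing members were lower, and Hspa5, Pdia3 and Pdia4 turned to 0.87, 0.20 and 0.14. Calr, Canx and Ssr1 then passed as higher, at 1.30, 0.51 and 0.42. Hspa5 and Pdia3, which passed as lower without it, passed as higher too, so their direction between sorts depended on the normalization. The blood progenitor and osteoblast markers given above moved with the sort, and their part in these differences was not tested.

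**Figure D5:**
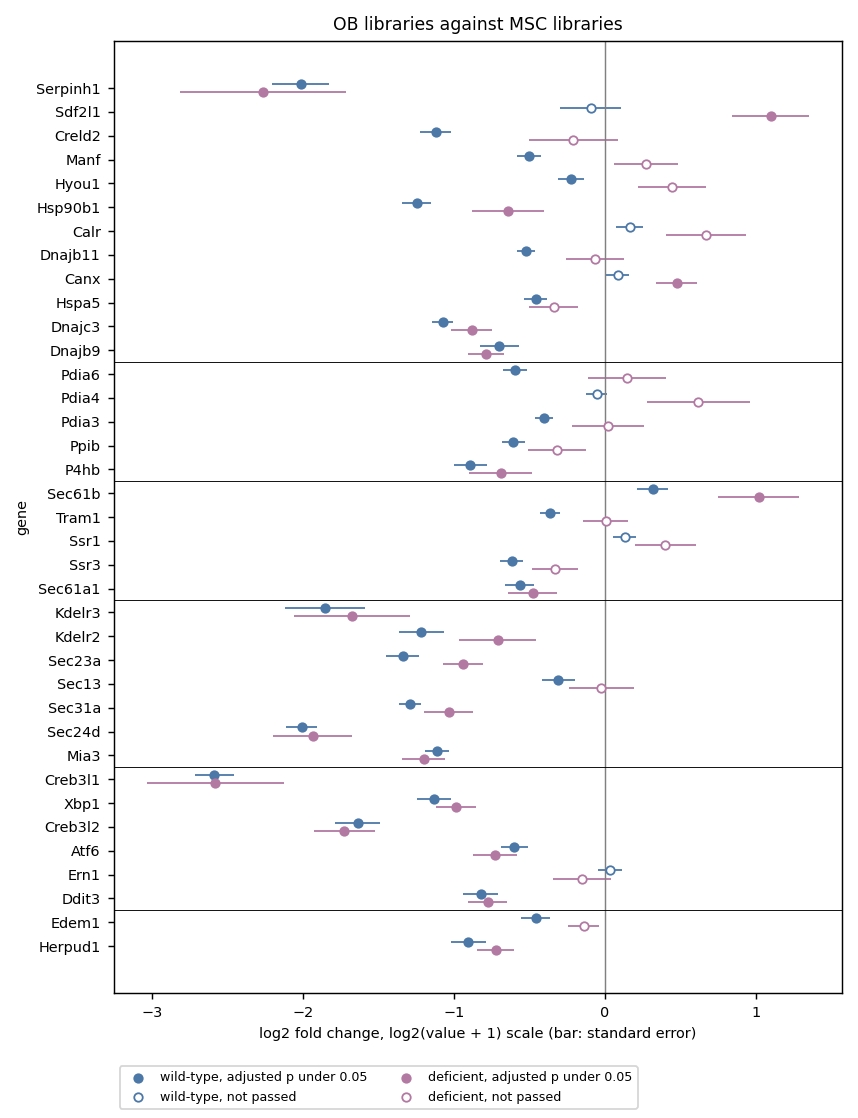
Log2 difference of OB against MSC libraries for each member (rows, by role), with standard errors, in wild-type (blue) and deficient mice (purple); filled points passed at an adjusted p under 0.05. In wild-type mice 30 members passed to the left and 1, Sec61b, to the right, and in deficient mice 18 and 3.

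Among deficient mice the same contrast gave 18 members lower and 3 higher, where 59.6% of 14692 genes passed and 30.6% were lower. Coat, export and retrieval again fell, 6 of 7 with a median of -1.04, and 5 of 6 sensors and factors with a median of -0.88. Creb3l1 and Serpinh1 had log2 fold changes of -2.58 ± 0.45 and -2.27 ± 0.55. Of the 12 chaperones 4 fell and 2 rose, and of the 5 isomerases 1, P4hb, fell. Sdf2l1 rose from 159 ± 64.5 to 325 ± 28.1 (SD, n = 4), a log2 fold change of 1.10 ± 0.26, Sec61b rose by 1.02 ± 0.27 and Canx by 0.48 ± 0.14. The wild-type and deficient contrasts share no library, and their difference is the test of genotype effects between sorts given above, which no member passed. With the mouse as a replicate block 23 members passed, Calr and Ssr1 being added, and under quantile normalization 24 passed, 15 of them lower.

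Other genes of the pathway were read from 7 lists with 157 genes in the table, of which 153 were tested. Between genotypes 0 passed in either sort by limma and by edgeR, while DESeq2 gave 7 lower and 3 higher in MSC and 2 lower in OB, where it passed 7.99% and 1.36% of all genes. At an unadjusted p under 0.05 limma gave 46 lower and 10 higher in MSC, and 31 lower and 4 higher in OB. The shares over all genes were 12.1% lower and 10.7% higher in MSC, and 4.78% and 4.17% in OB. These lists too were chosen with earlier results of these data known, so the counts are no test. In MSC, 28 of 31 further folding genes lay below 0, 13 at an unadjusted p under 0.05 (limma), with a median of -0.48 against -0.03 over all genes tested. Erp29, an ER chaperone-like protein, had the smallest p among them and stood at 1167 ± 121 in wild-type and 684 ± 176 in deficient MSC (SD, n = 4), a log2 difference of -0.80 ± 0.18 (adjusted p = 0.0571). Of 30 genes of targeting, translocon and glycan transfer, 27 lay below 0 and 10 were lower at that threshold, led by the glycan transferase subunit Ostc at -1.12 ± 0.29 (adjusted p = 0.0782). Of 16 COPI and retrieval genes, 14 lay below 0 and 7 were lower, led by Kdelr1 at -0.57 ± 0.15 (adjusted p = 0.0802). Of 31 COPII and intermediate-compartment genes, 22 lay below 0, 9 were lower and 4 higher, with the cargo receptor Tmed3 at -0.90 ± 0.26. The stress arms gave other counts. Of 16 genes of the PERK and integrated stress response, 9 lay above 0, with 4 higher and 3 lower, and the stress-induced mTOR inhibitor Ddit4 stood at 1440 ± 313 in wild-type and 4360 ± 2380 in deficient MSC, a log2 difference of 1.44 ± 0.35 (adjusted p = 0.0680). Of 21 further degradation genes, 11 lay below 0, with 2 lower (9.52%, under the share of all genes) and 1 higher, and a median of -0.04, and Ufd1l, part of the complex that pulls proteins out of the membrane, was the higher one at 0.41 ± 0.13. Of 8 genes of ATF6 and CREB3 processing, 5 lay below 0 and 2 were lower, led by Atf6b at -0.63 ± 0.18.

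In OB the medians of the same lists lay nearer 0, from -0.16 for folding to 0.01 for ATF6 and CREB3 processing. Folding genes lay below 0 in 28 of 31 cases, 8 at an unadjusted p under 0.05, led by the calcium-binding ER protein Rcn1 at -0.56 ± 0.18 (adjusted p = 0.379). Kdelr1 had -0.29 ± 0.07 (adjusted p = 0.270) and the cargo receptor Lman1 -0.33 ± 0.08 (adjusted p = 0.284). Chac1, a glutathione-degrading enzyme induced by ATF4, stood at 59.2 ± 32.4 in wild-type and 16.7 ± 5.27 in deficient OB, a log2 difference of -1.66 ± 0.41 (adjusted p = 0.276). Ostc, Atf6b and Edem3 had -0.32 ± 0.08, -0.24 ± 0.12 and -0.18 ± 0.09.

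A few members hold a sequence that miR-9-5p could pair with. RefSeq gives this mature microRNA with 1 sequence for 3 loci, Mir9-1, Mir9-2 and Mir9-3, of which the mice are labelled deficient in the first. It is shown from RefSeq with its seed, bases 2 to 8, in capitals.
mmu-miR-9-5p: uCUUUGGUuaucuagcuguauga
A perfect match to the seed (ACCAAAG) stood in the longest annotated 3′ UTR of 5 of the 37 members (13.5%), against 1939 of 13877 genes with 10 or more normalized counts in 4 libraries (14%), with median UTR lengths of 988 and 1163 bases. The share among members was close to that background. The 7 sites are given with their surroundings (GRCm38, GENCODE M21), the match in capitals, to show where the microRNA could pair.
Dnajc3, chromosome 14, UTR base 112: gtttgtccatgACCAAAGagtt
Dnajc3, chromosome 14, UTR base 2335: ggaaaaatatgACCAAAGgtca
Edem1, chromosome 6, UTR base 1283: acaggccaaatACCAAAGgcaa
Edem1, chromosome 6, UTR base 2247: agactgctgagACCAAAGccag
Ssr3, chromosome 3, UTR base 1577: accatcatgttACCAAAGctaa
Creb3l2, chromosome 6, UTR base 446: gcactgagaggACCAAAGcgtc
Ern1, chromosome 11, UTR base 2343: tttcattaggtACCAAAGcact
In MSC these 5 genes had log2 differences of -0.09 (Dnajc3), -0.42 (Edem1), -0.43 (Ssr3), -0.17 (Creb3l2) and 0.21 (Ern1), and in OB of 0.10, -0.10, -0.14, -0.26 and 0.02 in that order. None of the 5 was higher at an unadjusted p under 0.05 in either sort. Members with the largest differences in MSC, Serpinh1, Sdf2l1, Creld2 and Kdelr3, all of them lower, had no such match. Whether miR-9-5p acts on any member was not tested.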

How the data were processed

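Poly(A) RNA libraries of 16 sorted samples were analysed. The authors deposited 1 table of normalized counts, a signal made per the submitters' processing notes with DESeq2 1.24.0 on mm10. Aligner, counter and annotation were not given in the sources. Dividing each column by its smallest value above 0 gave whole reads, within 0.01, for 100% of values, and these recovered reads gave the depths. The library kit is NEBNext Ultra RNA, and whether counting used strand is not given. No column was left unmapped.

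Groups came from the genotype and cell type in the labels. Each contrast was fitted with limma 3.58.1 (R 4.3.3, lmFit and eBayes with trend) on log2(value + 1), for genes with at least 10 in at least 4 fitted libraries, with Benjamini-Hochberg adjustment over all genes, the threshold being an adjusted p of 0.05. A log2 difference on this scale understates changes of low genes. Genotype and cell type contrasts used 8 libraries each, and the difference of genotype effects used 16. Fits were tested on simulated data. Each contrast was run again with recovered reads in DESeq2 1.42.0 and in edgeR 4.0.16 (quasi-likelihood, with TMM), after quantile normalization, with a pseudocount of 5, with a filter of 50 or none, with all 16 libraries fitted together, with marker levels as covariates and with libraries left out. The series of animal numbers and the sex of the library were added as covariates after the data were seen. MSC and OB libraries with the same animal number in their titles were taken as 1 mouse, which the Xist and Ddx3y levels of the OB libraries do not bear out. Deviations of paired libraries from their group means correlated at 0.0241 to 0.285 across genes, and 5 of 8 mice correlated best with their own number, and contrasts of cell type were also fitted with the animal number as a replicate block.

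Values in every library are given for members that passed a genotype comparison and otherwise, in each role, for the 3 with the smallest p between genotypes in MSC (both in the role of 2), with Serpinh1 and Hspa5 added after their values were seen. For each further list the gene with the smallest p is named. The members and lists were chosen with earlier results of these data known. Coordinates and exon lengths are from GENCODE M21 (GRCm38/mm10). At this depth 3 reads correspond to 1.95 to 4.51 normalized counts, counting error only.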

Additional observations from a re-analysis of the deposited data

Results flagged for a closer look

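Of 148 groups of 4 libraries (37 members in 4 groups), 9 held a library whose gap to the nearest of the others took more of the group's range than Dixon's 95% critical value allows, and chance gives about 1 in 20. In deficient OB, mouse F stood high for Hsp90b1 at 7321 normalized counts (next 5700) and for Kdelr2 at 866.2 (next 689.4). Mouse E stood low there for the calnexin gene Canx at 5375 (next 6174) and for Ssr1 at 3432 (next 4142), and mouse H for Xbp1 at 965.1 (next 1056). In deficient MSC, mouse F stood high for the coat gene Sec23a at 1522 (next 1137) and mouse E for the sensor Atf6 at 1958 (next 1403). In wild-type MSC, mouse B stood high for Hspa5 at 26389 (next 23276) and low for Dnajc3 at 3411 (next 3933).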

How the results depend on the processing

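The count of members passing between genotypes in MSC depended on the setting, while their median stayed below 0 in all 19 alternatives. Against 1 in the limma fit, where 1.06% of all genes passed, the count was 11 by DESeq2 (7.99% of all genes), 20 with all 16 libraries in 1 fit (14.4%) and 2 under quantile normalization (1.32%). It was 0 with no filter (0.749%), by edgeR (0.982%, with 18 members lower at an unadjusted p under 0.05), with the muscle level (0%), the series of animal numbers (0.0535%) or the sex of the library (0.341%) as a covariate, and without mice G and H (0%). Leaving out 1 library gave 24 without deficient mouse F (15.3%) and 0 in every other case (0% to 0.0811%). In OB the count went from 0 to 4 with the stroma level as a covariate (1.8%) and to 1 without mice E and F (0.634%). For the difference of genotype effects it ran from 0 to 12 when 1 library was left out, 12 without mouse F's MSC library (3.69%). With the mouse as a replicate block 31 members passed between sorts in wild-type mice, 23 in deficient mice and 0 for the difference.

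The signs of these values turned between genotypes or between wild-type sorts, and the cause was not tested. In MSC, Mia3 went to 0.0137 by edgeR, 0.0198 by DESeq2, 0.132 with the muscle covariate, 0.0701 without G and H and -0.0832 to 0.0606 with 1 library left out, Dnajc3 to 0.0488 with the muscle covariate, and the cargo gene Col1a2 to 0.0385 under quantile normalization. In OB, the stroma covariate and the fit without E and F gave -0.0623 and -0.0737 for Atf6, -0.0241 and -0.0357 for Ern1, and -0.0630 and -0.106 for Herpud1. Leaving out 1 OB library gave -0.0263 to 0.0894 for Atf6, -9.85e-05 to 0.0512 for Ern1 and -0.0742 to 0.0488 for Herpud1. Between wild-type sorts, quantile normalization gave 0.870 for Hspa5, 0.197 for Pdia3 and 0.145 for Pdia4, and leaving out 1 library gave -0.305 to 0.0595 for Sdf2l1. Without mouse F's MSC library, Creld2 went from -0.21 to 0.0987 between deficient sorts, and Serpinh1 from -0.25 to 0.158 in the difference of genotype effects. Other members crossed 0 in these contrasts too. Over all settings Hspa5 ran from -0.445 to 0.780 and Pdia3 from -0.131 to 0.588 between deficient sorts. Creb3l1 ran from -0.255 to 0.418 in the difference. Of 703 member values under other settings in MSC, 628 kept direction and side of the threshold, as did 651 of 666 in OB. The lowest member value, 105.2 for Creb3l1 in OB of mouse H, lay above the 1.95 to 2.36 normalized counts that 3 reads correspond to in OB.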
